A study of Mus musculus with 12 samples.

Results

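Purkinje cells are the large GABAergic output neurons of the cerebellar cortex. They arise from the Ptf1a-positive ventricular zone, whereas granule neurons arise from Atoh1-positive progenitors of the rhombic lip, the lineage from which medulloblastoma of the sonic hedgehog type is known to develop. Mature Purkinje cells carry dense calcium signalling through phospholipase C and the IP3 receptor, and are rich in proteins that buffer calcium or bind calmodulin.

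The levels of 10 genes used as markers of Purkinje cells were examined in the medulloblastomas (MBs) of a mouse model deficient for the DNA ligase IV cofactor XRCC4, in cerebellar granule progenitor cells (CGNP) and in whole cerebellum (WC). The genes were Pcp2, Pcp4, Calb1, Car8, Itpr1, Ppp1r17, Foxp2, Rora, Skor2 and Lhx1, a list made from knowledge of the cell type. A probe set counted for a gene if it mapped to that gene alone, and those probe sets were averaged on the log2 scale to give the gene's level. Of the 10 genes, 8 were measured, among 18193 genes in all. Itpr1, the IP3 receptor, and Skor2, a transcriptional corepressor, had no probe set assigned to them and were not analysed here.

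RNA was hybridised to Affymetrix mouse expression arrays, with 1 array for each of 12 mice. The 8 MBs came from mice that lacked p53 and carried Nestin-Cre, which is active in neural progenitors, with Xrcc4 deleted from a conditional allele. Tumors MB_630, MB_794, MB_1187, MB_1197, MB_1207 and MB_1224 carried Xrcc4 c/-, and tumors MB_706 and MB_1206 carried Xrcc4 c/c. The 2 CGNP samples and the 2 WC samples came from control animals that the study calls matched in age and genotype. Their exact ages and alleles and the way CGNP were isolated are not given in the sources used here. In CGNP against WC, age and maturity therefore cannot be told apart from the kind of sample. The labels place each MB in brain tissue, while the methods list 6 of the 8 (all but MB_706 and MB_1187) among cultured MB cells, so some of the arrays may hold cultured cells. Arrays correlated at 0.972 to 0.992 between MBs, at 0.994 between the CGNP samples and at 0.995 between the WC samples (Pearson's r over genes). The lowest value in the table, a log2 level of 2.2, is the floor of the normalization, and levels below 2.5 are called close to the floor here.

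The promoters of 3 of the genes are shown because RORA, the product of one of the 8 genes, is known to bind the half-site AGGTCA and because the 3 genes behaved differently in the MBs. Each run covers 250 bases before to 50 bases after a start site of the RefSeq annotation of GRCm38.p6, from 5′ to 3′ on the gene's strand. Capitals mark AGGTCA or its reverse complement TGACCT. The Pcp2 window is at chr8:3625498-3625797 on the minus strand, the Pcp4 window at chr16:96467356-96467655 on the plus strand and the Lhx1 window at chr11:84525485-84525784 on the minus strand.
Pcp2: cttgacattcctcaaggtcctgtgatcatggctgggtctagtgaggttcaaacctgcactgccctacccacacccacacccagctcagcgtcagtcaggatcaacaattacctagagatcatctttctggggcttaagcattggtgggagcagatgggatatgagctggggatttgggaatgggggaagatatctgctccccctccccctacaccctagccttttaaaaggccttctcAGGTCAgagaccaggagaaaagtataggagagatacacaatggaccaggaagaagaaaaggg
Pcp4: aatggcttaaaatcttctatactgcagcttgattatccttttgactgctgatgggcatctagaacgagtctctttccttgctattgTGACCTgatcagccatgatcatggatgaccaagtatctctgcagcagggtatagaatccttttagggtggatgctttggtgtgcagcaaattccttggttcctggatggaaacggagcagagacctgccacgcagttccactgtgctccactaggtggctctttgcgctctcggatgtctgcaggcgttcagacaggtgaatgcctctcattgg
Lhx1: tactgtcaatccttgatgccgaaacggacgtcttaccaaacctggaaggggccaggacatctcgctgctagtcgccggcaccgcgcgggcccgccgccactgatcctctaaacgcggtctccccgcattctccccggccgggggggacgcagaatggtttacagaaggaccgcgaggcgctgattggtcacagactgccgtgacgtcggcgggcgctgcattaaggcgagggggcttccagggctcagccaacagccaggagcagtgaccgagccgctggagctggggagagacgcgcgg
The first base of the match lay 12 bases before the start in Pcp2, on the gene's strand, and 164 bases before it in Pcp4, on the opposite strand. Lhx1 and Rora itself had no match in their windows. Windows were given for 4 of the 8 genes, 7 windows in all because Pcp2 has 4 starts, and 4 of the 7 held the half-site, with overlapping Pcp2 windows sharing a match. Over all 32851 windows of this length, 16.3% held it. A match of 6 bases is a description of the sequence and not a binding site.

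The 8 genes fell into 2 groups. Pcp2, Pcp4, Calb1, Car8, Ppp1r17 and Rora were lower in MB than in WC, with log2 differences of -3.67 to -8.10, and Foxp2 and Lhx1 were higher in MB than in WC, by 1.91 and 2.07. In limma with all 12 samples in 3 groups and Benjamini-Hochberg adjustment over the 18193 genes, 6 of 8 passed as lower and 2 of 8 as higher at an adjusted p of 0.05. Of all genes, 21.8% passed as lower and 22.2% as higher, 44.0% in either direction. No gene of the 8 overlapped between MB and WC, as was the case for 22.5% of all genes in the lower direction and 24.3% in the higher. The median difference was -6.13 over the 8 genes and 0.00 over all genes. Between MB and WC, Foxp2 and Lhx1 went against the label of Purkinje cell marker. Whole cerebellum, which includes the Purkinje cell layer, had less of both than the tumors. In bulk samples such as these, fewer cells of a type and less RNA per cell cannot be told apart.

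**Figure D1:**
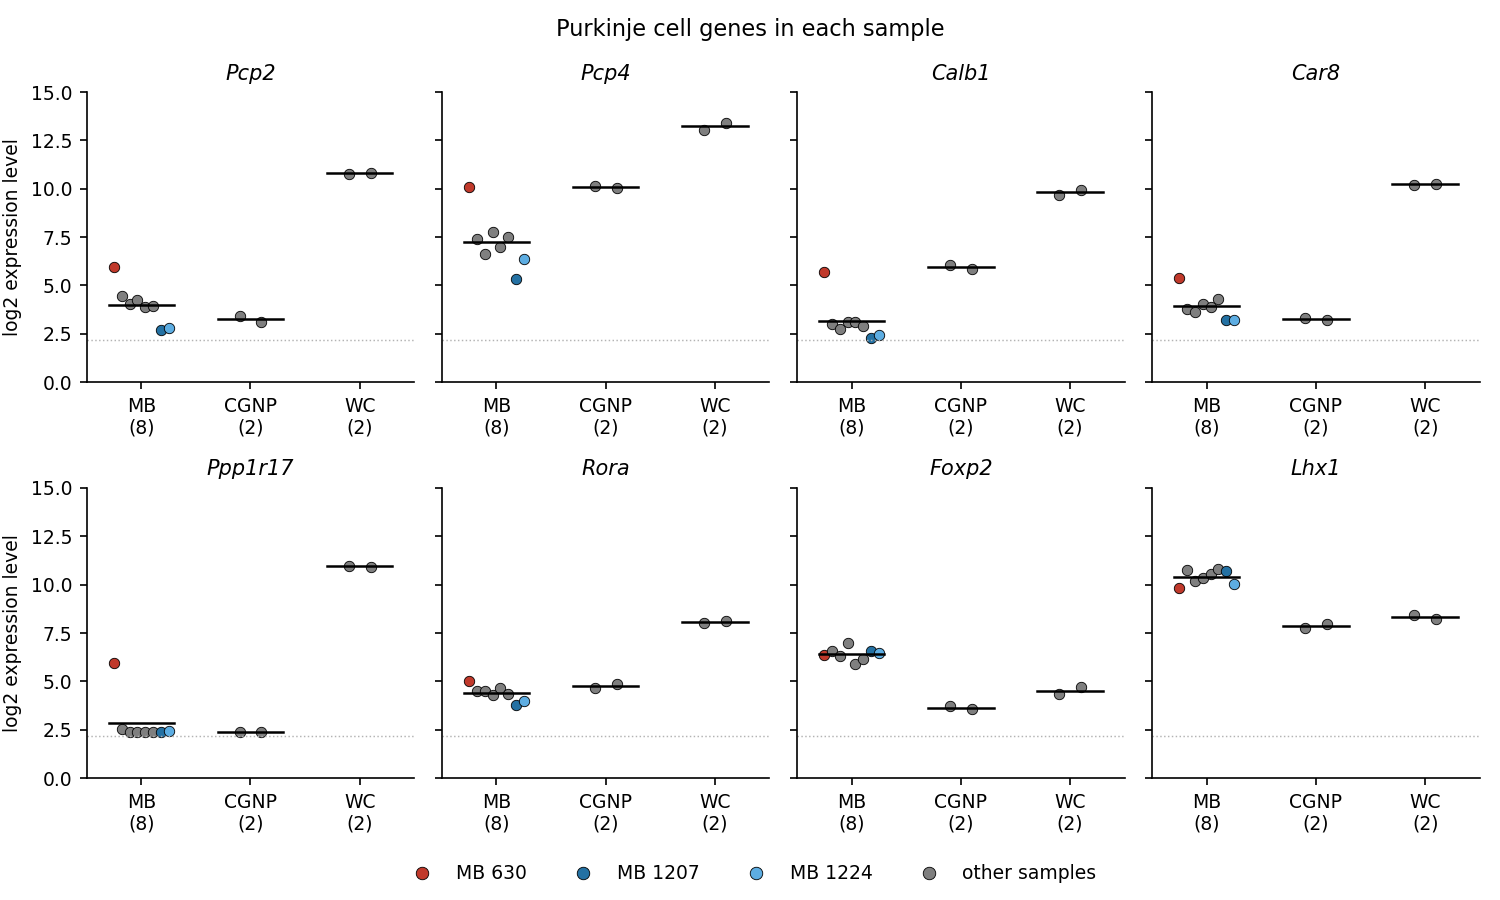
Log2 expression level (vertical axis) of the 8 genes in each of 8 MB, 2 CGNP and 2 WC samples, with 1 point per mouse, a line at the group mean and a dotted line at the floor of the normalization. For Pcp2, Pcp4, Calb1, Car8, Ppp1r17 and Rora each MB sits below both WC samples, with MB_630 on top of the tumors, and for Foxp2 and Lhx1 each MB sits above the CGNP and WC samples.

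Pcp2, also called L7, encodes a modulator of G protein signalling found in Purkinje cells and retinal bipolar cells. Its level was 5.93 in MB_630, 4.43 in MB_706, 4.02 in MB_794, 4.23 in MB_1187, 3.89 in MB_1197, 3.95 in MB_1206, 2.71 in MB_1207 and 2.80 in MB_1224, against 3.44 and 3.10 in CGNP and 10.78 and 10.82 in WC. The tumors spanned the CGNP values on both sides and none came near WC. MB averaged 4.00 ± 1.01 (SD, n = 8), with a log2 difference of -6.81 from WC (SE 0.686, adjusted p = 2.2e-05). Against CGNP the difference was 0.73 (SE 0.686, adjusted p = 0.525, 95% interval -0.81 to 2.27), and that of CGNP from WC was -7.53 (SE 0.868, adjusted p = 1.3e-04). These differences from WC are understated, since 2 of the 3 probe sets were close to the floor in both CGNP samples and 1 in all 8 MBs.

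Car8 encodes a carbonic anhydrase-related protein without the enzyme's activity, which binds the IP3 receptor and lowers its affinity for IP3. Its level was 5.40 in MB_630, 3.77 in MB_706, 3.62 in MB_794, 4.03 in MB_1187, 3.89 in MB_1197, 4.31 in MB_1206, 3.20 in MB_1207 and 3.24 in MB_1224, against 3.33 and 3.21 in CGNP and 10.18 and 10.26 in WC. MB_1207 and MB_1224 were at the level of CGNP, 5 tumors lay above it and MB_630 was the highest. The MB mean of 3.93 ± 0.70 (SD, n = 8) gave a log2 difference of -6.29 from WC (SE 0.478, adjusted p = 3.0e-06) and of 0.66 from CGNP (SE 0.478, adjusted p = 0.354, 95% interval -0.41 to 1.74). The difference of CGNP from WC was -6.95 (SE 0.605, adjusted p = 1.9e-05). Here too the differences from WC are understated, with 2 of the 3 probe sets close to the floor in both CGNP samples and in 6 or 8 of the MBs.

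Ppp1r17 encodes G-substrate, an inhibitor of protein phosphatases that is phosphorylated by the cGMP-dependent kinase. Its single probe set read 5.97 in MB_630, 2.54 in MB_706, 2.40 in MB_794, 2.40 in MB_1187, 2.39 in MB_1197, 2.40 in MB_1206, 2.39 in MB_1207 and 2.41 in MB_1224, against 2.40 and 2.39 in CGNP and 10.99 and 10.92 in WC. Thus 6 of 8 MBs and both CGNP samples were close to the floor, and only MB_630 stood clearly above it. The fitted difference between MB and WC was -8.10 (SE 0.854, adjusted p = 3.0e-05), which the floor understates. CGNP were at least 379-fold below WC (log2 difference -8.57, SE 1.08, adjusted p = 2.4e-04), a bound because both CGNP values lie close to the floor. MB and CGNP differed by 0.47 (SE 0.854, adjusted p = 0.844, 95% interval -1.45 to 2.39), which becomes 0.03 without MB_630.

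Calb1, calbindin, is the main fast calcium buffer of Purkinje cells and is also made by other neurons of the hindbrain. Its level was 5.70 in MB_630, 3.01 in MB_706, 2.76 in MB_794, 3.09 in MB_1187, 3.09 in MB_1197, 2.92 in MB_1206, 2.26 in MB_1207 and 2.45 in MB_1224, against 6.05 and 5.83 in CGNP and 9.67 and 9.96 in WC. The 3 kinds of sample formed separate steps, with each MB below both CGNP samples and both of these below WC. MB averaged 3.16 ± 1.07 (SD, n = 8), with a log2 difference of -6.65 from WC (SE 0.731, adjusted p = 4.0e-05) and of -2.78 from CGNP (SE 0.731, adjusted p = 0.0128). The difference of CGNP from WC was -3.87 (SE 0.925, adjusted p = 0.0107). Of the 4 probe sets, 3 were close to the floor in 7 or 8 of the MBs, so the differences of MB are understated. The difference from CGNP did not pass without CGNP_2698 (adjusted p = 0.0903) or without CGNP_2705 (0.0707), and that between CGNP and WC did not pass without CGNP_2705 (0.0541) or without WC_2647 (0.0558).

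Pcp4, or PEP-19, encodes a small protein that speeds the exchange of calcium on calmodulin. Its single probe set read 10.07 in MB_630, 7.39 in MB_706, 6.65 in MB_794, 7.74 in MB_1187, 6.99 in MB_1197, 7.52 in MB_1206, 5.33 in MB_1207 and 6.36 in MB_1224, against 10.15 and 10.02 in CGNP and 13.05 and 13.40 in WC. MB_630 lay between the CGNP values, while the other 7 tumors were below them. The MB mean of 7.25 ± 1.37 (SD, n = 8) was 62.7-fold below WC (log2 difference -5.97, SE 0.936, adjusted p = 4.6e-04) and 7.11-fold below CGNP (log2 difference -2.83, SE 0.936, adjusted p = 0.0381). CGNP and WC differed by -3.14 (SE 1.18, adjusted p = 0.0798). Both comparisons that involve CGNP changed with the samples left out. Without MB_630, MB against CGNP had an adjusted p of 0.0018 and CGNP against WC one of 0.0096, whereas without MB_706, MB_794, MB_1187, MB_1197, MB_1206 or MB_1224, or any one of the 4 normal samples, the difference of MB from CGNP did not pass (adjusted p 0.0502 to 0.174).

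Rora encodes an orphan nuclear receptor that Purkinje cells need to mature and to keep their dendrites, and loss of it is the staggerer mutation of the mouse. Its level was 5.01 in MB_630, 4.51 in MB_706, 4.52 in MB_794, 4.28 in MB_1187, 4.67 in MB_1197, 4.35 in MB_1206, 3.79 in MB_1207 and 4.01 in MB_1224, against 4.68 and 4.85 in CGNP and 8.01 and 8.12 in WC. The CGNP values lay below MB_630 and above every other MB, and both groups were far under WC. The difference of MB from WC was -3.67 (SE 0.262, adjusted p = 1.9e-06), that of CGNP from WC -3.30 (SE 0.332, adjusted p = 5.3e-05) and that of MB from CGNP -0.37 (SE 0.262, adjusted p = 0.342, 95% interval -0.96 to 0.22). All 9 probe sets of Rora were lower in MB than in WC, with differences of -0.62 to -6.08.

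Foxp2 encodes a forkhead transcription factor found in Purkinje cells from their birth into adulthood. Its level was 6.37 in MB_630, 6.60 in MB_706, 6.33 in MB_794, 6.99 in MB_1187, 5.92 in MB_1197, 6.18 in MB_1206, 6.59 in MB_1207 and 6.46 in MB_1224, against 3.71 and 3.56 in CGNP and 4.35 and 4.70 in WC. Every MB was above every normal sample, and the tumors lay close together. The MB mean of 6.43 ± 0.32 (SD, n = 8) was 6.93-fold above CGNP (log2 difference 2.79, SE 0.227, adjusted p = 8.4e-06) and 3.75-fold above WC (1.91, SE 0.227, adjusted p = 7.0e-05). Its 6 probe sets were each higher in MB than in WC, by 0.71 to 2.77, and each higher in MB than in CGNP, by 1.44 to 4.42. The difference of CGNP from WC was -0.89 (SE 0.287, adjusted p = 0.0437), a call lost without any one of 10 of the 12 samples, the exceptions being MB_1187 and MB_1197 (adjusted p 0.0515 to 0.219), and 2 of the 6 probe sets did not run in that direction.

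Lhx1 encodes a LIM homeodomain transcription factor that specifies Purkinje cells together with Lhx5 and the cofactor Ldb1, and that other hindbrain neurons also use. Its level was 9.81 in MB_630, 10.77 in MB_706, 10.18 in MB_794, 10.33 in MB_1187, 10.54 in MB_1197, 10.84 in MB_1206, 10.73 in MB_1207 and 10.06 in MB_1224, against 7.74 and 7.99 in CGNP and 8.44 and 8.24 in WC. MB_630, the highest tumor for the 6 genes that were lower in MB than in WC, was the lowest for Lhx1. MB averaged 10.41 ± 0.37 (SD, n = 8), higher than CGNP by 2.54 (SE 0.259, adjusted p = 3.8e-05) and higher than WC by 2.07 (SE 0.259, adjusted p = 1.0e-04). CGNP and WC differed by -0.47 (SE 0.328, adjusted p = 0.352, 95% interval -1.21 to 0.26). Both probe sets of Lhx1 ran the same way.

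Against CGNP, 2 of 8 genes (Pcp4 and Calb1) passed as lower in MB, where 18.6% of all genes did, and 2 (Foxp2 and Lhx1) passed as higher, where 18.7% did, which makes 4 of 8 in either direction beside 37.3% of all genes. Samples did not overlap for Calb1, lower in MB as in 20.5% of all genes, and for Foxp2 and Lhx1, higher in MB as in 21.2%. The share of the 8 genes called lower was thus near that of all genes. Between CGNP and WC, 6 of 8 passed as lower in CGNP, where 13.6% of all genes did, and none as higher, where 14.9% did, 28.5% of all genes having passed in either direction. All 8 genes were lower in both CGNP samples than in both WC samples, as were 27.7% of all genes, while 31.5% of all genes were higher without overlap. Their median difference was 0.57 between MB and CGNP and -3.59 between CGNP and WC. MB against WC and CGNP against WC share the WC samples, and MB against CGNP and CGNP against WC share the CGNP samples, so these counts are not independent of each other. The study set MB against both kinds of normal sample pooled, and in that fit 3 of 8 genes (Pcp4, Calb1 and Rora) passed as lower, against 16.4% of all genes, and 2 (Foxp2 and Lhx1) as higher, against 20.0%. Pcp2, Car8 and Ppp1r17, which had the widest gaps between CGNP and WC, did not pass there (adjusted p 0.148, 0.137 and 0.115).

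For each gene alone, exact permutation tests of MB against WC gave p = 0.0222 for each of the 8 (two-sided), the smallest p that 8 against 2 samples allow. Against CGNP they gave 0.0222 for Calb1, Foxp2 and Lhx1, 0.0444 for Pcp4 and 0.244 to 0.467 for the others. With 2 samples a side, CGNP against WC cannot reach p = 0.05 in an exact test, where the smallest p is 0.333. The standard errors of CGNP against WC in limma draw on the spread of the 8 MBs, which limma assumes the normal samples to share.

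**Figure D2:**
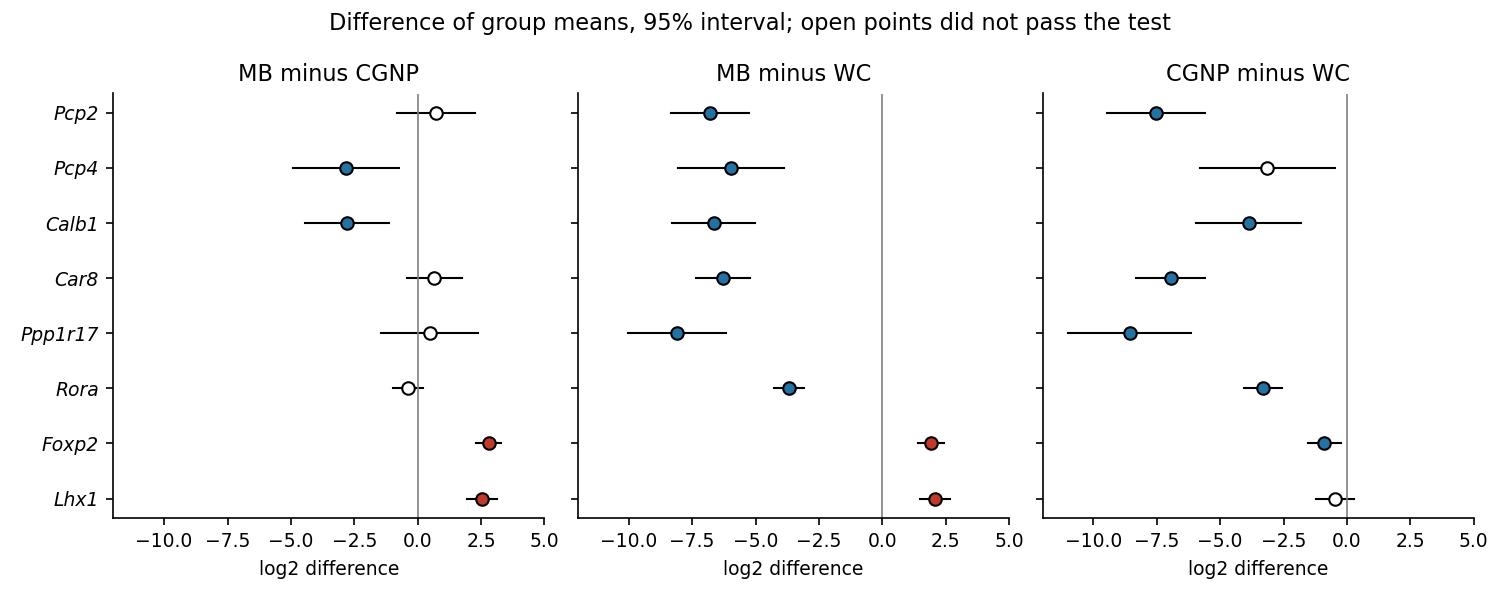
Log2 difference of group means (horizontal axis) for the 8 genes in MB minus CGNP, MB minus WC and CGNP minus WC, with unadjusted 95% intervals from the limma fit; filled points passed the test (red higher, blue lower) and open points did not. Foxp2 and Lhx1 are to the right of 0 against both normal groups, and Pcp2, Car8, Ppp1r17 and Rora differ from WC in MB and in CGNP alike, with open points for MB minus CGNP.

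The probe sets of a gene gave unequal readings, and the averages above include probe sets at the floor. The brightest probe set of Calb1 averaged 5.21 in MB, 10.96 in CGNP and 14.28 in WC, and reached 10.41 in MB_630. For that probe set alone CGNP and WC differed by -3.32 (adjusted p = 0.289). The brightest probe sets of Pcp2 and Car8 averaged 6.68 and 7.15 in MB, 5.10 and 5.36 in CGNP, and 14.37 and 13.98 in WC. On these probe sets MB exceeded CGNP by 1.59 for Pcp2 (adjusted p = 0.484) and by 1.78 for Car8 (adjusted p = 0.301), so neither passed.

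Among the tumors, MB_630 had the highest level of 6 of the 8 genes, namely those that were lower in MB than in WC. It exceeded the next tumor by the widest margins in Ppp1r17 (5.97 against 2.54 in MB_706), Calb1 (5.70 against 3.09) and Pcp4 (10.07 against 7.74 in MB_1187). It was still below both WC samples for each of the 6. At the other end, MB_1207 and MB_1224 were the 2 lowest tumors for 5 genes (Pcp2, Pcp4, Calb1, Car8 and Rora). The mean over the 8 genes was 6.78 in MB_630, 5.38 in MB_706, 5.06 in MB_794, 5.39 in MB_1187, 5.17 in MB_1197, 5.31 in MB_1206, 4.62 in MB_1207 and 4.72 in MB_1224, against 5.19 and 5.12 in CGNP and 9.43 and 9.55 in WC. Tumors MB_706 and MB_1206, with Xrcc4 c/c, lay among the c/- tumors. MB_706 also stood apart in RNA quality, with a 3′ minus 5′ difference of the control probe sets of 2.93. That difference was 0.56 to 0.82 across the remaining tumors and 0.15 to 0.52 in CGNP and WC. None of the 8 genes had its highest or lowest MB level in MB_706, but it came next to the highest for Pcp2, Ppp1r17, Foxp2 and Lhx1. The part of RNA quality in these levels was not tested.

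**Figure D3:**
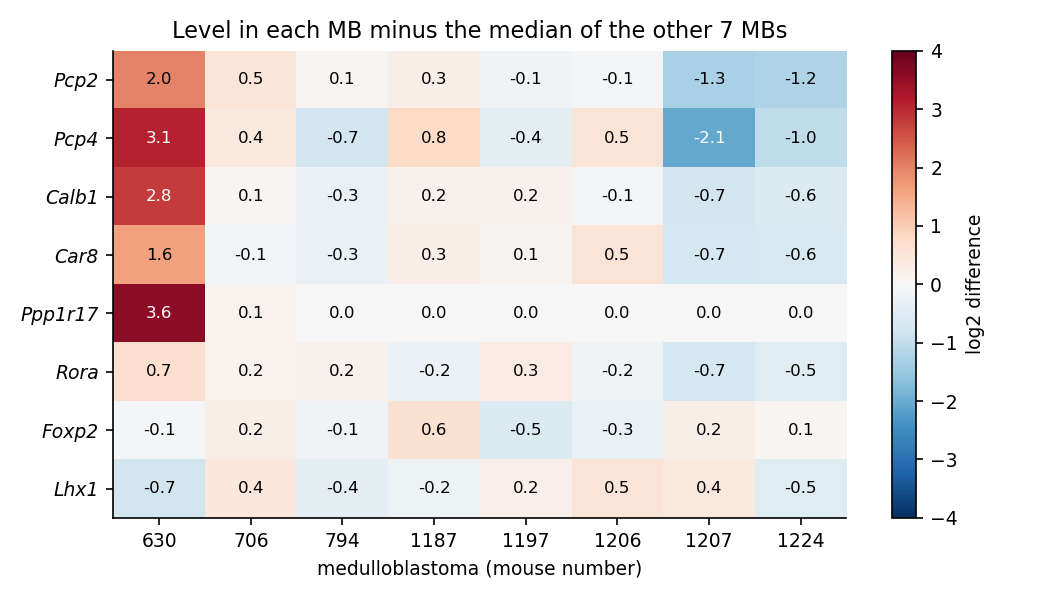
Log2 level of the 8 genes in each MB (columns, by mouse number) minus the median of the other 7 MBs, with red above and blue below. MB_630 is high for the upper 6 genes and low for Lhx1, and MB_1207 and MB_1224 are low for Pcp2, Pcp4, Calb1, Car8 and Rora.

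Levels of the 6 genes lower in MB than in WC were compared across tumors. Over the 8 MBs, the 15 pairs among them had Pearson's r between 0.67 and 0.96 with a median of 0.91. Without MB_630 the median was 0.78 and the range 0.04 to 0.91, and the lowest values belong to pairs with Ppp1r17, most of whose values lie close to the floor. Without the 2 tumors farthest from the median of the first gene of a pair (MB_630 with MB_1207, or with MB_706 for Ppp1r17 and Rora), the median was 0.66 and the range -0.18 to 0.85, with 0.22 for Pcp4 and Rora, 0.39 for Car8 and Rora and -0.14 for Car8 and Ppp1r17. The highest were 0.85 for Pcp4 and Car8 and 0.85 for Pcp2 and Calb1. Leaving out the tumors farthest from the median narrows the range, which itself tends to lower r. How far the likeness among the 6 genes rests on these tumors cannot be told from these values. The 12 pairs of one of these genes with Foxp2 or Lhx1 had r between -0.64 and -0.02, and between -0.46 and 0.38 without MB_630. These coefficients describe 8 tumors whose arrays also differ in the levels of markers of other cell types, and no test was made on them.

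The mean levels of marker lists for several other cell types were also highest in MB_630 among the tumors. The mesenchymal list (Col1a1, Col1a2, Col3a1, Dcn and Lum) averaged 6.68 in MB_630, against 2.96 to 4.14 in the other MBs, with all 5 markers highest in MB_630. The granule neuron list averaged 8.55, against 6.89 to 7.44, but only 2 of its 4 markers were highest there. Gabra6, the GABA receptor subunit of mature granule neurons, was at 8.78 in MB_630 and at 2.24 to 4.69 in the remaining tumors, and Neurod1 was at 13.42 against 12.27 to 13.17. Slc17a7, at 2.56 in MB_630 and 2.51 to 2.80 in the remaining tumors, and Rbfox3, at 9.44 and 9.16 to 9.89, were inside the range. The inhibitory interneuron list averaged 3.69 against 2.47 to 3.0, with 3 of 5 markers highest in MB_630. Its Grm2 and Slc6a5 were close to the floor in each MB. The oligodendrocyte list averaged 5.17 against 3.21 to 4.66, with 2 of 4 markers highest in MB_630. Mbp and Mobp were higher in MB_1206, at 8.81 and 4.67, than in MB_630, at 8.68 and 4.43. The endothelial list averaged 4.24 against 2.59 to 3.6 (4 of 4 highest) and the choroid plexus list 5.98 against 2.39 to 5.12 (3 of 3). By contrast the granule progenitor list averaged 10.58 in MB_630, within the 10.42 to 11.06 of the other MBs but next to the lowest. In it MB_630 was the lowest tumor for Mki67, at 11.98 against 12.11 to 12.66. It was also the lowest for Barhl1, at 8.93 against 9.21 to 10.45. Atoh1, Zic1 and Pax6 were inside the range of the other MBs. MB_1207 was the lowest tumor for the Purkinje, granule progenitor, granule neuron, interneuron, astroglial and oligodendrocyte lists. The part of other cell types in the levels of the 8 genes was not tested. Without MB_630 each of the 8 genes kept its call against WC.

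Markers of other cell types were present in the normal samples as well. CGNP averaged 8.93 and 8.74 for the granule progenitor list, against 5.73 and 5.65 in WC, with 3 of 5 markers passing as higher. Zic1 overlapped between CGNP and WC. Atoh1 was at 6.04 and 5.87 in CGNP, 2.81 and 2.70 in WC and 11.13 to 12.55 in MB. CGNP also averaged 7.30 and 7.58 for the mesenchymal list, against 4.37 and 4.23 in WC. For the interneuron list CGNP averaged 5.31 and 5.17, against 6.86 and 6.84 in WC. In the astroglial list 1 marker passed as higher in CGNP than in WC and 1 as lower. Its Gfap was at 9.08 and 8.96 in CGNP and at most 5.03 in WC. Its Gdf10 was at 6.58 and 6.67 in CGNP, against 12.41 and 12.02 in WC. For the list of unipolar brush and nuclear neurons CGNP were the highest of the samples, at 6.69 and 6.70, with MB at 4.51 to 5.64 and WC at 4.58 and 4.77. Within it Slc17a6 stood at 11.38 and 11.64 in CGNP, against 5.84 and 6.46 in WC. Eomes was at 10.05 and 10.01 in CGNP, against 7.37 and 7.51 in WC. Tbr1 was not highest in CGNP, at 3.14 and 2.95 there, 2.91 and 2.92 in WC and 3.14 to 5.47 in MB. Lmx1a was close to the floor in every sample. Choroid plexus markers were uneven between the WC samples, with a mean of 3.37 in WC_2646 and 8.69 in WC_2647, while the 8 Purkinje cell genes differed by at most 0.36 between these samples. The microglial list averaged 4.71 to 6.36 in MB, 3.22 and 3.89 in CGNP and 5.02 and 4.96 in WC. The markers of blood measured, Hba-a1 and Alas2, were close to the floor in each sample.

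**Figure D4:**
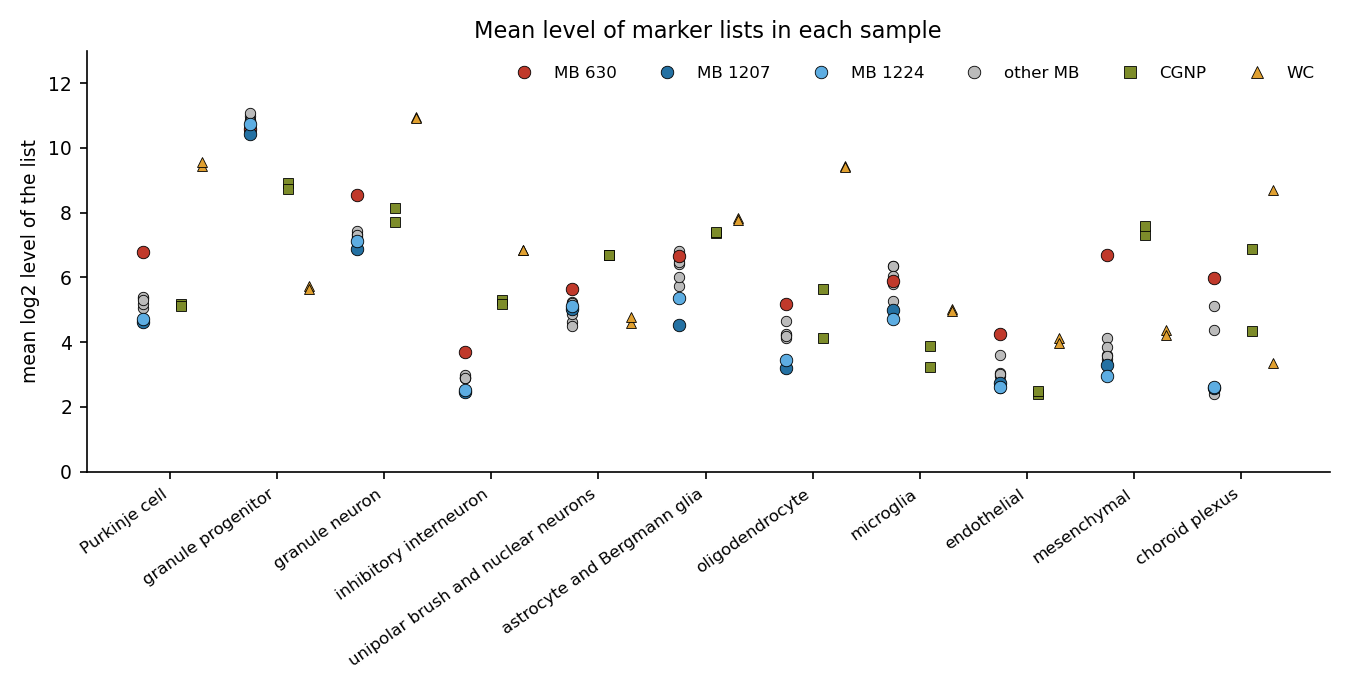
Mean log2 level of 11 marker lists (vertical axis) in each sample, with MBs as circles, CGNP as squares and WC as triangles. MB_630 is the highest MB for the Purkinje cell, granule neuron, inhibitory interneuron, oligodendrocyte, endothelial and mesenchymal lists, among others, and lies inside the other MBs for the granule progenitor and microglia lists.

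The pathway that the IP3 receptor belongs to could be followed through its other genes. Of 10 listed genes of phospholipase C and IP3 signalling, 7 were measured. In MB against WC, 6 of 7 passed as lower, where 21.8% of all genes did, and Plcb3, the exception, differed by -0.72 (adjusted p = 0.311). The median difference was -3.77, against 0.00 over all genes. The largest falls by fitted difference were those of Rgs8, a regulator of G protein signalling, and of Itpka, which phosphorylates IP3. Rgs8 stood at 2.39 to 7.30 in MB (median 4.78, highest in MB_630), against 2.30 and 2.37 in CGNP and 12.27 and 12.39 in WC, a difference of -7.68 from WC (SE 1.07, adjusted p = 2.0e-04). Itpka was at 2.23 in 6 MBs, at 2.25 in MB_1187 and at 3.54 in MB_630, against 2.23 and 2.23 in CGNP and 9.09 and 9.36 in WC, so its difference of -6.82 (SE 0.317, adjusted p = 8.7e-08) is measured down to the floor. Against CGNP, Plcb3 was higher in MB (difference 1.51, adjusted p = 0.0375) and Plcb4 lower (-1.29, adjusted p = 9.6e-04), both phospholipases, and 5 of 7 genes did not pass, where 18.7% of all genes passed as higher and 18.6% as lower. CGNP against WC gave 6 of 7 lower, where 13.6% of all genes were.

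Of 14 further genes of Purkinje cells 12 were measured, and all 12 were lower in MB than in WC, as were 21.8% of all genes, with a median difference of -4.16. The largest falls by fitted difference were those of Slc1a6, the glutamate transporter EAAT4 of Purkinje cells, and of Gad1, which makes GABA, but genes that reach the floor in MB have no sure order, among them Nefh, a neurofilament gene, at -7.47 with an MB median of 2.43. Slc1a6 stood at 2.2 to 4.30 in MB (median 2.54, highest in MB_630), against 2.52 and 2.52 in CGNP and 10.79 and 10.80 in WC, a difference of -8.00 (SE 0.481, adjusted p = 5.6e-07). Gad1 stood at 2.53 to 7.52 in MB (median 4.57, highest in MB_630), against 10.11 and 10.14 in CGNP and 12.22 and 12.28 in WC. The difference of MB from WC was -7.76 (SE 1.03, adjusted p = 1.5e-04) and that from CGNP -5.63 (SE 1.03, adjusted p = 0.0017). Against CGNP, 6 of the 12 were lower (Cacna1a, Dner, Atp2b2, Gad1, Gad2 and Slc32a1), beside 18.6% of all genes, and in CGNP against WC 9 of the 12 were lower, beside 13.6%. Gad1, Gad2 and Slc32a1 also mark the inhibitory interneurons, whose list was lower in MB than in either normal group, and Aldoc also marks astroglia. Shh, the mitogen that Purkinje cells supply to granule progenitors, was at 2.2 to 2.25 in MB and at 2.21 in both CGNP samples, close to the floor, against 4.39 and 4.81 in WC.

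Of the transcription factors listed for Purkinje cell specification, most that passed were higher in MB than in WC, as Foxp2 and Lhx1 were. Of 10 listed, 9 were measured, and in MB against WC 6 passed as higher (Olig2, Ldb1, Ebf1, Ebf2, Ebf3 and Bcl11a), Lhx5 as lower, and Ptf1a and Neurog1 did not pass, with a median difference of 1.65. Of all genes, 22.2% passed as higher there. WC, which includes the Purkinje cell layer, had less of the 6 higher factors than the tumors. Between MB and WC those 6 therefore did not follow the Purkinje cell layer. Their levels within Purkinje cells were not measured. Ebf3, of the EBF family of helix-loop-helix factors, stood at 10.18 to 11.30 in MB (median 10.65), against 9.83 and 9.93 in CGNP and 4.91 and 5.23 in WC, a difference of 5.59 from WC (SE 0.291, adjusted p = 2.0e-07). Ebf2, of the same family, stood at 4.91 to 6.92 in MB (median 5.60), against 2.65 and 2.74 in CGNP and 3.78 and 4.03 in WC, a difference of 1.89 (SE 0.471, adjusted p = 0.0080). Lhx5, the partner of Lhx1, was at 2.29 to 2.42 in MB, close to the floor, against 4.12 and 4.01 in CGNP and 4.62 and 5.29 in WC. Its difference of MB from WC was -2.57 (SE 0.129, adjusted p = 1.5e-07), so Lhx1 and Lhx5 changed in opposite directions. Ptf1a, which marks the ventricular zone origin of Purkinje cells, was at 2.2 in every MB and in both WC samples, and at 4.31 and 3.20 in CGNP. Against CGNP, 4 of 9 were higher in MB (Olig2, Ebf1, Ebf2 and Bcl11a), beside 18.7% of all genes. Ptf1a and Lhx5 were lower in MB than in CGNP, beside 18.6% of all genes. Between CGNP and WC, Ptf1a and Ebf3 were higher in CGNP, beside 14.9% of all genes. Lhx5 was lower in CGNP, beside 13.6% of all genes, and 6 did not pass.

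**Figure D5:**
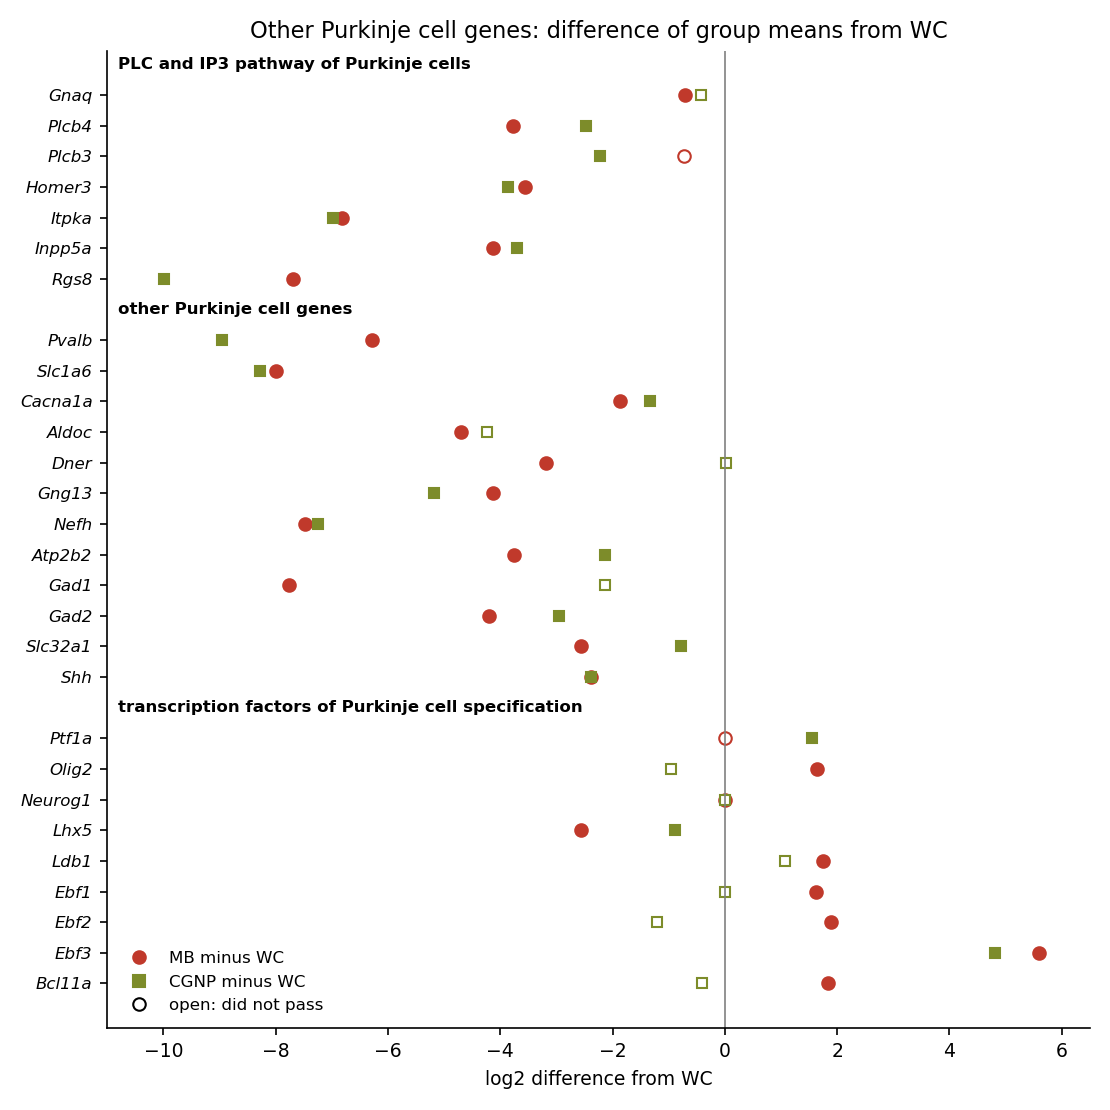
Log2 difference of the MB mean (circles) and the CGNP mean (squares) from the WC mean (horizontal axis) for 28 genes in 3 lists, with filled symbols for genes that passed the test. Symbols of the upper 2 lists lie mostly left of 0 for both groups, whereas 6 transcription factors, Ebf3 the farthest, lie right of 0 in MB.

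The genes whose profile over the 12 samples was closest to the mean profile of the 8 genes, each centred on its own mean, were Rit2, Rasgrf1, Arhgef3, Mctp1 and Klk6, with root mean square distances of 0.25 to 0.32 on the log2 scale. Rit2 encodes a small GTPase of neurons, and Rasgrf1 a calcium-dependent exchange factor for Ras. Rit2 averaged 2.63 in MB, 2.81 in CGNP and 6.63 in WC, and was at 3.90 in MB_630. Rasgrf1 averaged 2.78 in MB, 2.93 in CGNP and 7.47 in WC, and was at 3.97 in MB_630. Their profile, like that of the 8 genes on average, was one of low levels in MB and CGNP, a step up in WC and a smaller step in MB_630.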

How the data were processed

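Expression was measured in 8 MB, 2 CGNP and 2 WC samples. Affymetrix arrays were processed by the authors in R (affy, with GCRMA normalization), who deposited log2 levels per probe set and array, with a floor near 2.2. GCRMA compresses differences near the floor, so falls that reach it are understated. Samples were grouped by the labels. The table held 45101 probe sets, of which 64 were array controls and were removed, 34945 had 1 gene in the probe table used, 932 had several and 9160 had none. Gene levels were means of a gene's probe sets without the suffixes s or x (290 genes had only those and kept them), which gave 18193 genes with no filter on level.

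R 4.3.3 and limma 3.58.1 (lmFit and eBayes, two-sided, Benjamini-Hochberg over all genes, threshold 0.05) compared MB, CGNP and WC in a single fit without covariates. The code was tested on simulated data. Nothing states separate litters or processing days, so p-values measure the spread between these mice. The number of arrays limits the precision.

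The members, the gene lists and the tests were chosen with earlier results of these data known. The 2 largest rises and falls past the test in MB against WC were named per list. Listed genes that were not measured are not reported here. The 5 genes with the smallest distance from the 8 genes' mean profile were named, without predicted genes and clones. Promoters came from RefSeq (GRCm38.p6) and motifs were searched on both strands. Alternatives were other summaries of probe sets, quantile normalization, arrays shifted to the same median, array weights, trend and robust estimation, a level filter, the methods' t-test, leaving out each sample, and both normal groups pooled.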

Additional observations from a re-analysis of the deposited data

Results flagged for a closer look

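MB_630 stood far from the other tumors in 2 of the 8 genes by Dixon's ratio, at its 95% critical value for 8 samples. Calb1 was at 5.70 in MB_630 and at 3.09 in the nearest other MB, and Ppp1r17 was at 5.97 in MB_630 and at 2.54 in the nearest other MB. The gap divided by the whole range was 0.758 for Calb1 and 0.958 for Ppp1r17. Chance alone flags about 1 in 20 groups whose values vary freely. Ppp1r17 was close to the floor in 6 of the 8 MBs, and most Calb1 probe sets were in 7 or 8. The rate therefore need not hold for these 2 genes. The same tumor was also the highest MB for Pcp2, Pcp4, Car8 and Rora, whose gaps did not reach the critical value, and for the mesenchymal and endothelial marker lists. It was also highest for the granule neuron list, in which Gabra6 and Neurod1 but not Slc17a7 and Rbfox3 were highest there, 2 of 4 markers.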

How the results depend on the processing

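Of 495 values of single genes under the alternatives (8 genes, 3 comparisons), 463 kept their direction and side of the threshold, 28 lost the call, 4 gained one and 0 changed direction. All 8 genes passed in MB against WC under every alternative that tested them, but only genes with a mean level above 5 left 5 to test, and these 5 passed. Leaving out 1 sample gave 8 to 8 calls in MB against WC, 2 to 4 in MB against CGNP (2 without either CGNP sample) and 4 to 6 in CGNP against WC, and over all genes 6603 to 7981, 5339 to 6865 and 4112 to 5394. The methods' t-test with Benjamini-Hochberg adjustment called 2847 genes in CGNP against WC, where limma called 5180. Unadjusted it called 8, 4 and 7 of the 8 genes in MB against WC, MB against CGNP and CGNP against WC, and 8, 3 and 6 after adjustment. Of all 18193 genes the t-test called 9305, 8389 and 6283 unadjusted in the same order, and 7726, 6533 and 2847 after adjustment. Lost calls belonged to Pcp4 and Calb1 in MB against CGNP and to Calb1 and Foxp2 in CGNP against WC, and Foxp2 lost its call with array weights (adjusted p = 0.0916) too. Pcp4 gained one in CGNP against WC with the level filter (adjusted p = 0.0351), with the t-test and without MB_630. The cause was not tested. No paired analysis was possible because the groups share no replicate numbers. The limits are the 2 arrays in each normal group, values near the floor, and the unknown content of other cell types and of cultured cells.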
